A study of Homo sapiens with 4 samples.

Results

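The 10 genes described here encode regulators of cytoplasmic mRNA decay: ZFP36, ZFP36L1 and ZFP36L2, the BTG/TOB genes BTG1, BTG3, TOB1 and TOB2, the RNA-binding protein gene ELAVL1, and the deadenylase genes CNOT6 and CNOT7. Members were the non-control probes whose gene name in the scanner files, or whose RefSeq transcript, was one of these genes. This gave 21 of the 50238 probes and 10 of the 17649 genes or transcripts tested. The data come from A549 cells, an established human lung adenocarcinoma line, which were moved to medium with reduced serum before treatment. There were 2 arrays of control cells left untreated (0 µM) and 2 of cells given embelin (15 µM), a benzoquinone from the fruits of Embelia ribes, all collected at 4 h. The study asked which pathways change at this early stage of embelin induced apoptosis. As the labels number the replicates without naming separate cultures, the p-values measure only the spread between these samples, which may be technical. In such bulk samples a change in the level per cell and a change in the share of cells that carry a transcript cannot be told apart.

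Many short-lived transcripts, such as those of cytokines and immediate early genes, carry AU-rich elements. Proteins of the ZFP36 family bind these elements through tandem zinc fingers and recruit the CCR4-NOT complex, which shortens the poly(A) tail and so starts decay. BTG and TOB proteins are adaptors that bind the deadenylase subunits of the same complex, whereas ELAVL1 (HuR) binds AU-rich elements and stabilizes the transcript. In epithelial cells ZFP36 and BTG2 are known as rapidly induced stress and growth factor response genes, and phosphorylation of ZFP36 through the p38 MAP kinase branch restrains its activity. The arrays read transcript levels only, and the proteins of the genes described here and their phosphorylation were not measured. For the MAP kinases themselves the study reported, by Western blot, more phosphorylated p38 and JNK and less phosphorylated ERK with embelin.

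All 6 epithelial and A549 markers examined (KRT8, KRT18, KRT19, CDH1, AKR1B10 and ALDH1A1) were well above background on all 4 arrays. Of 6 markers of other cell types COL1A1 was so on all 4, while LYZ was so on 0, PTPRC on 1, PECAM1 on 2, and CD3E and SFTPC on 3. Signals are Cy3 intensities scaled to a common 75th percentile and given in log2 units, so a difference of 1 is a 2-fold change. Log2 fold changes of embelin over control are given ± the standard error of the limma fit. The probe with the highest mean signal stands for its gene, and levels of different probes are not compared. All arrays shared a slide, on which embelin was hybridized to the inner positions 2 and 3 and control to positions 4 and 1 (replicates 1 and 2). An effect of inner against outer position cannot be told apart from that of embelin. Control replicate 2 and embelin replicate 1 had the fewer probes well above background, 25265 and 25698 against 33532 and 33363 on the other arrays. Their 75th percentiles before scaling were also lower, 601 and 648 against 721 and 739. Higher background below names the arrays with fewer such probes and lower background the others. The grouping rests on these counts, and background levels themselves are not given. Over all genes tested the median log2 fold change was -0.06.

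With embelin, the signals of ZFP36 and BTG1 rose about 4-fold, and no member fell by the adjusted test. ZFP36L2 and TOB1 were more than 2-fold lower in mean signal without an adjusted call. The deadenylase genes differed little between the groups. After Benjamini-Hochberg adjustment of limma's test over all 17649 genes, 2 of 10 members were called higher and 0 lower, against 1.81% of all genes called in either direction (1.25% higher and 0.561% lower). Before adjustment, the threshold in the study's methods (at least 2-fold, and p below 0.05) was passed by 2 members that were higher and 2 that were lower, by limma, against 8.26% of all genes in either direction (4.27% higher and 3.99% lower). By the methods' own t-test the 2 higher members passed it and the 2 lower did not. A difference of at least 2-fold alone was met by the same 4 members, against 12.6% of all genes. With p alone 6 members passed, 4 higher and 2 lower, against 19.5% of all genes (8.36% higher and 11.1% lower). Of the 10 log2 fold changes 4 were above 0, against 43.9% over all genes. The embelin and control arrays did not overlap in 9 of the 10 members, 4 higher and 5 lower, against 51.8% of the 17298 genes measured on each array (21.1% higher and 30.7% lower). As the members were chosen with earlier results of these data known, these shares describe them and are not independent evidence.

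**Figure D1:**
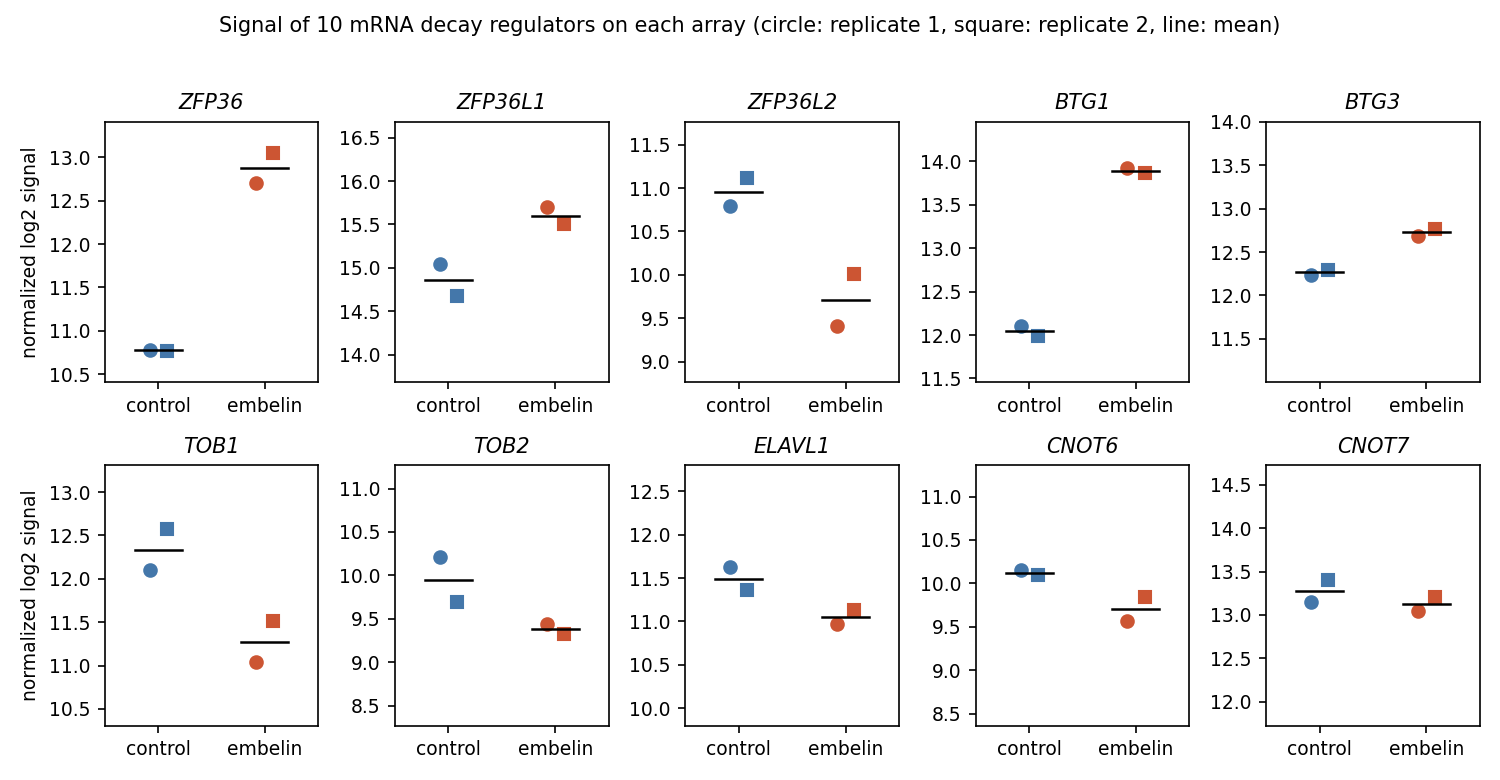
Normalized log2 signal of each of the 10 genes at its brightest probe (vertical axis, every panel spans the same range of 3 log2 units) on the 2 control and 2 embelin arrays. Points are single arrays and lines are group means. ZFP36 and BTG1 stand about 2 log2 units higher with embelin, ZFP36L2 and TOB1 lie lower, and only the CNOT7 groups overlap.

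ZFP36 (tristetraprolin), the founding member of its family, had log2 signals of 10.78 and 10.77 without embelin and 12.70 and 13.05 with it. The controls were nearly identical, and both embelin arrays lay far above them. The log2 fold change was 2.10 ± 0.20 (adjusted p = 0.0380 from limma), a 4.28-fold rise with a 95% interval of 1.56 to 2.63 in log2. On the arrays of lower background the difference was 2.26 and on those of higher background 1.93. Only 1 probe represented the gene.

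The RefSeq promoter of ZFP36 (GRCh38.p14, chr19:39406597-39406896, plus strand) is shown because it belongs to the member that rose most, next to that of BTG1 (chr12:92145797-92146096, minus strand), the other called member, and that of ZFP36L1 which holds a full cAMP response element (chr14:68793367-68793666, minus strand). Each window runs from 250 bases before to 50 bases after the annotated start, 5′ to 3′ on the strand of the gene. Capitals mark motifs searched on both strands, so that a match on the other strand appears as its reverse complement. The GC box was searched as GGGCGG, the usual letters bound by Sp1. The TATA box, which places the polymerase near the start site, was searched as TATAAA. The full cAMP response element was TGACGTCA, and its core, which lies within the full element but also occurs on its own, was TGACG. The EGR site was GCGNGGGCG, which overlaps the GC box by its last letters.
ZFP36 promoter: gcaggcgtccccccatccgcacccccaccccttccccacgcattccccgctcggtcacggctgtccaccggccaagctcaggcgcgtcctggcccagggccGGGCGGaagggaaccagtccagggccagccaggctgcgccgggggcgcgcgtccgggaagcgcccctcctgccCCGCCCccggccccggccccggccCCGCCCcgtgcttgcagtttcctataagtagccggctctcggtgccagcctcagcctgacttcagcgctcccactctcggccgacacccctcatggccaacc
BTG1 promoter: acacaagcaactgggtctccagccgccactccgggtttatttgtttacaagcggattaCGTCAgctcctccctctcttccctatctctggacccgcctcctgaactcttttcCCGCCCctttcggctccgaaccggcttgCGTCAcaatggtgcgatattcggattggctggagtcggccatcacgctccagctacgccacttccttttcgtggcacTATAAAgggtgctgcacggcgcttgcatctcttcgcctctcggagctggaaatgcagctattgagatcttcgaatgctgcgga
ZFP36L1 promoter: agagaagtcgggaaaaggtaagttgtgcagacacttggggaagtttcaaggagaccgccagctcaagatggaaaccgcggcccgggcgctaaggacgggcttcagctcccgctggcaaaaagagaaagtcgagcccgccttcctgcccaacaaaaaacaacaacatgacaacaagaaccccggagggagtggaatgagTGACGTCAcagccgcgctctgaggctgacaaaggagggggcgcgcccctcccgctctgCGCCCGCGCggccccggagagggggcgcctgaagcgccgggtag

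The ZFP36 window held 74.7% G and C and 29 CpG dinucleotides, against medians of 58.7% and 14 over 35116 promoters of the same length. It had 3 GC boxes, a motif found in 45% of all promoters and in 6 of the 9 windows of members. The BTG3 window held 77.3% G and C, and the TOB1 windows 78.7% and 41.3%. BTG1 had 56.0% G and C, a TATA box starting 33 bases before the start site (11.5% of all promoters hold one), a GC box and 2 cores of the cAMP response element (24.6% of all promoters hold at least 1). In ZFP36L1 the full element, present in 1.85% of all promoters, began 52 bases before the start site. The same window held an EGR site on the other strand, printed from 6 bases after the start site (9.43% of all promoters hold one). The AP-1 letters TGACTCA (4.95% of all promoters), the HIF core ACGTG (21.4%), the CArG box by name (1.29%) and the ATF4 and C/EBP letters TGATGNAAT (0.991%) were in 0 of the 9 windows of the 7 members listed. ZFP36L2, ELAVL1 and CNOT7 had no entry. These matches describe letters in the window only.

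ZFP36L1, a paralog with the same kind of zinc fingers, had log2 signals of 15.04 and 14.67 in the controls and 15.70 and 15.50 with embelin at its brighter probe. Every embelin array was above every control, and the log2 fold change of 0.74 ± 0.21 (adjusted p = 0.182 from limma) was not called. At its other probe the signals were 8.46 and 8.37 in the controls and 9.05 and 9.11 with embelin. That probe gave a log2 fold change of 0.66 ± 0.18 (adjusted p = 0.209 for the brighter and 0.175 for this probe when every probe was tested on its own). Both probes thus lay near 0.7 and neither was called.

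ZFP36L2, the remaining paralog, went the other way. Its log2 signals were 10.79 and 11.12 in the controls and 9.41 and 10.01 with embelin, so that the lower control still exceeded the higher embelin array. The log2 fold change was -1.24 ± 0.28 (unadjusted p = 0.0108 and adjusted p = 0.126 from limma), with a 95% interval of -2.02 to -0.47. The difference was -0.78 between the arrays of lower background and -1.71 between those of higher background. Between same-numbered arrays, which the labels do not call paired, it was -1.38 and -1.11. Of the 17 alternatives run, only eBayes set to trend and robust called ZFP36L2 (adjusted p = 0.0459 from limma). That setting called 1061 genes in all, against 320 in the main comparison.

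To set paralogs against each other, the log2 difference between 2 members was taken within each array, which does not depend on how the arrays were scaled. ZFP36 minus ZFP36L2 was -0.0045 and -0.35 in the controls and 3.29 and 3.04 with embelin. The difference thus moved by 3.34 in log2, and the groups were far apart. An exact two-sided permutation test gave p = 0.333, the smallest that 2 arrays against 2 allow. ZFP36 minus ZFP36L1 moved by 1.35 and ZFP36L1 minus ZFP36L2 by 1.98, each with the same exact permutation p and with groups that did not overlap. In each pair of the 3 paralogs the shift was larger than the spread between replicates, in a design that cannot reach p below 0.333. Over the 6 pairs of members compared in all, the adjusted exact p was at least 0.400.

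**Figure D2:**
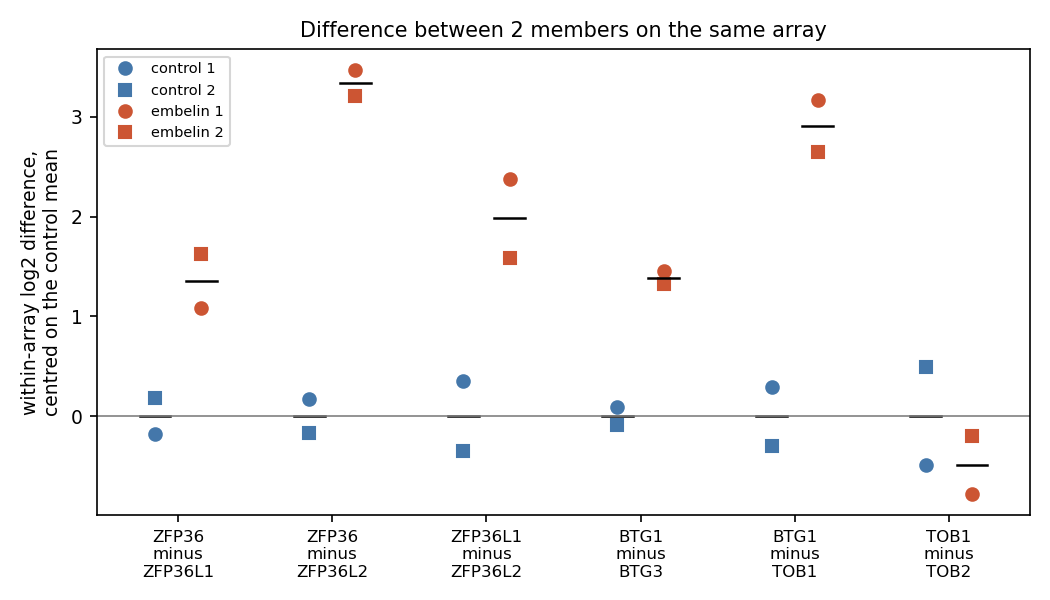
Log2 signal of 1 member minus that of another on the same array (vertical axis, centred on the control mean of each pair) for the 6 pairs compared. Points are arrays and lines are group means. ZFP36 minus ZFP36L2 moved by 3.34 and BTG1 minus TOB1 by 2.91, while the groups overlap for TOB1 minus TOB2.

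Among the BTG/TOB adaptors, BTG1, an antiproliferative gene, had log2 signals of 12.11 and 11.99 in the controls and 13.92 and 13.87 with embelin. Replicates lay close together in both groups. The log2 fold change was 1.85 ± 0.16 (adjusted p = 0.0350 from limma), a 3.60-fold rise with a 95% interval of 1.40 to 2.29 in log2. It was 1.76 between the arrays of lower background and 1.93 between those of higher background. BTG1, like ZFP36, had only 1 probe.

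BTG3 had log2 signals of 12.24 and 12.30 in the controls and 12.69 and 12.77 with embelin. The groups were apart by a small margin, with a log2 fold change of 0.46 ± 0.16 (unadjusted p = 0.0436 and adjusted p = 0.241 from limma). A further BTG3 probe, designed to a cDNA clone, was well above background on 1 array of each group and was not kept. Its signals were 4.85 and 3.74 in the controls and 3.97 and 4.95 with embelin, which overlapped.

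TOB1, which can hold both the deadenylase and the poly(A)-binding protein, was lower at both of its probes. At the brighter one the log2 signals were 12.10 and 12.57 in the controls and 11.04 and 11.51 with embelin. Each group spread over nearly 0.5, and the groups did not overlap. The log2 fold change was -1.06 ± 0.28 (unadjusted p = 0.0175 and adjusted p = 0.158 from limma). At the other probe, designed to a cDNA clone, the signals were 10.55 and 10.88 in the controls and 9.71 and 9.25 with embelin, a log2 fold change of -1.24 ± 0.26 (adjusted p = 0.122 with every probe tested on its own). Between the arrays of lower background the brighter probe differed by -0.59, and between those of higher background by -1.53. Between same-numbered arrays, which the labels do not call paired, it differed by -1.06 and -1.07.

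TOB2 had log2 signals of 10.21 and 9.70 in the controls and 9.44 and 9.33 with embelin at its brighter probe, a log2 fold change of -0.57 ± 0.24 (adjusted p = 0.307 from limma). At the other probe the groups overlapped, with 7.65 and 8.17 in the controls and 7.41 and 7.74 with embelin. BTG2, the family member outside the 10 genes that was well above background, had log2 signals of 9.11 and 8.84 in the controls and 10.27 and 10.85 with embelin, a log2 fold change of 1.58 ± 0.27 (adjusted p = 0.0836 from limma). BTG4 was too dim to be kept.

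Within the arrays, BTG1 minus TOB1 was 0.01 and -0.58 in the controls and 2.88 and 2.36 with embelin, a shift of 2.91 with groups far apart (exact permutation p = 0.333, the smallest possible). BTG1 minus BTG3 moved by 1.39 with the same exact p. TOB1 minus TOB2 moved by -0.49, with overlapping groups (exact permutation p = 0.667). The BTG genes measured thus lay higher and the TOB genes lower with embelin, of which BTG1 alone was called.

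The probe sequences of members with more than 1 probe show that each value rests on its own 60-base oligo, and 3 are given here as printed on the array, namely the second ZFP36L1 probe, the brighter TOB1 probe and the second TOB2 probe.
ZFP36L1 probe: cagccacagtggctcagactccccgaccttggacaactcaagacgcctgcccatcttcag
TOB1 probe: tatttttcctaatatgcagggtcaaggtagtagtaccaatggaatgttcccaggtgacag
TOB2 probe: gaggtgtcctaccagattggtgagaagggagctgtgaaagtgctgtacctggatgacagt

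Of the 21 member probes, 20 were kept each well above background in every sample. In 5 of the 6 members with several kept probes every kept probe had the same sign. The exception was CNOT6. These probes differed in G and C content, with 60.0% in this ZFP36L1 probe against 36.7% in the brighter one, which gave a like change.

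**Figure D3:**
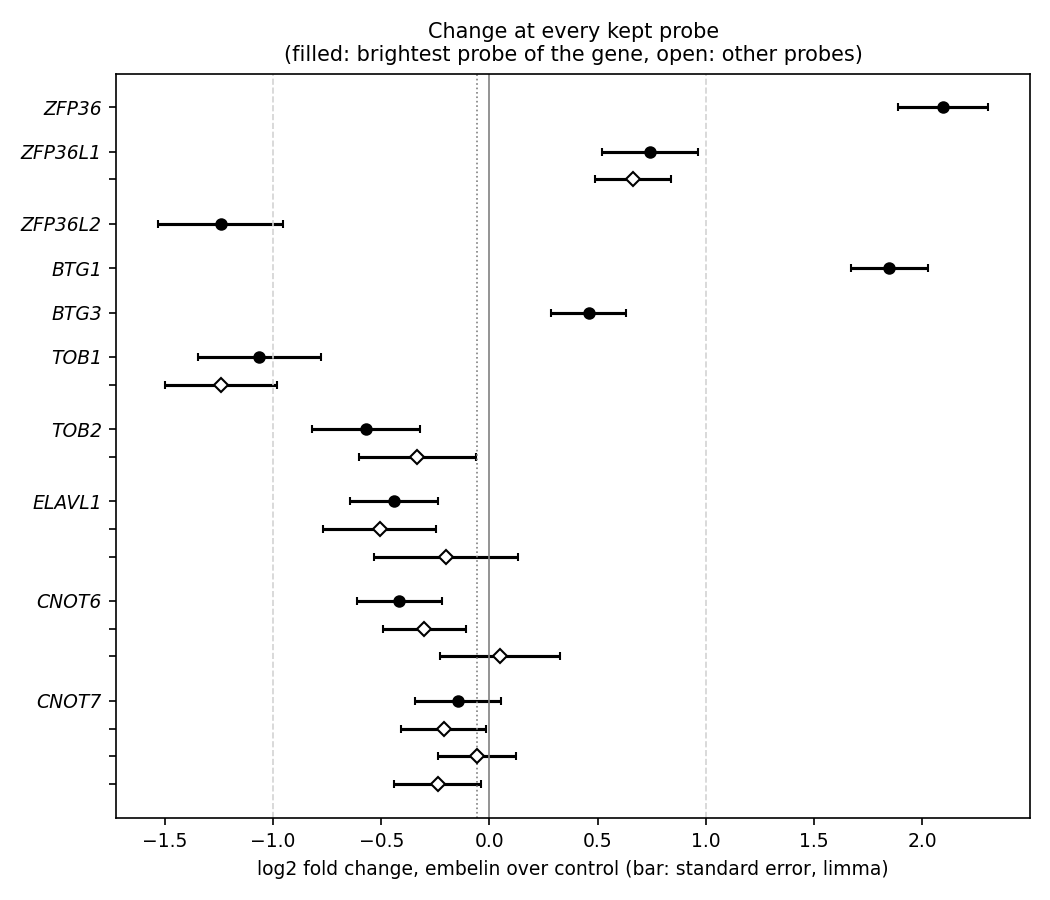
Log2 fold change of embelin over control (horizontal axis) at each of the 20 kept probes, with limma's standard error as bars and every probe tested on its own. Filled circles are the brightest probe of a gene and open diamonds its other probes, the dotted line is the median of all genes (-0.06), and dashed lines mark 2-fold. Both TOB1 probes and both ZFP36L1 probes lie close together, and the 4 CNOT7 probes lie between -0.24 and -0.06.

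ELAVL1, whose protein HuR stabilizes AU-rich transcripts, had log2 signals of 11.63 and 11.36 in the controls and 10.97 and 11.13 with embelin. The groups did not overlap, but the log2 fold change of -0.44 ± 0.19 (adjusted p = 0.315 from limma) was not called, and its 95% interval ran from -0.96 to 0.08. Its other probes gave -0.51 and -0.20.

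CNOT6 and CNOT7 encode deadenylase subunits of the CCR4-NOT complex. For CNOT6 the log2 signals were 10.15 and 10.10 in the controls and 9.57 and 9.85 with embelin, a log2 fold change of -0.42 ± 0.18 (adjusted p = 0.325 from limma). Its other probes gave -0.30 and 0.05. CNOT7 had log2 signals of 13.15 and 13.40 in the controls and 13.05 and 13.21 with embelin, so that the groups overlapped. The log2 fold change was -0.15 ± 0.19 (adjusted p = 0.726 from limma), and its 95% interval of -0.66 to 0.36 lay within 2-fold in either direction. The CNOT7 probes were designed to different transcripts, with -0.15 and -0.06 for NM_013354 and -0.21 and -0.24 for NM_054026.

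The remaining genes of the decay pathway were examined through 8 lists that held 98 genes besides the members, of which 94 passed the filter on dim probes. Limma called 6 of them higher and 0 lower after adjustment, against 1.25% and 0.561% of all genes. Before adjustment 19 were higher and 8 lower at p below 0.05 by limma, against 8.36% and 11.1% of all genes. The 6 called genes belonged to a single list, the transcripts known as targets of the ZFP36 family. In the other 7 lists 0 genes were called. Over the 91 that were well above background in every sample the median log2 fold change was -0.08, against -0.06 over all 15515 such genes. Of these 91, 16 were higher and 8 lower before adjustment, against 1207 and 1682 of the 15515.

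Of the 10 other CCR4-NOT subunits, 0 passed even without adjustment, and their log2 fold changes ran from -0.54 to 0.57 with a median of -0.13. The extremes were CNOT8, a close relative of CNOT7, at 0.57 (adjusted p = 0.279 from limma) and CNOT6L, a close relative of CNOT6, at -0.54 (adjusted p = 0.367 from limma). CNOT8 had log2 signals of 10.59 and 10.65 in the controls and 10.96 and 11.41 with embelin. The 8 other deadenylases, poly(A)-binding proteins and their partners had a median of 0.01, with 1 higher before adjustment. This was PAIP2, an inhibitor of the poly(A)-binding protein, at 0.64 (adjusted p = 0.227 from limma), whereas PABPC3 at 0.90 had overlapping groups.

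For decapping and 5′ to 3′ decay, 0 of 17 genes passed before adjustment and the log2 fold changes ran from -0.50 (EDC4, adjusted p = 0.695 from limma) to 0.18. LSM2, part of the ring that binds shortened tails, was at -0.47 (adjusted p = 0.282 from limma). Of 15 genes of the exosome, which degrades transcripts from the 3′ end, and its cofactors, 2 were lower before adjustment. EXOSC4, a ring subunit, had log2 signals of 12.43 and 12.41 in the controls and 11.58 and 11.39 with embelin, and DIS3L, the cytoplasmic nuclease, 12.56 and 12.44 against 11.56 and 11.63. Their groups were apart, with log2 fold changes of -0.94 (adjusted p = 0.0884 from limma) and -0.91 (adjusted p = 0.0879 from limma).

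Of 10 other RNA-binding proteins, many but not all of which bind AU-rich elements, 7 were measured and 0 passed before adjustment. Among them were ZC3H12A at -0.39 and TIA1 at -0.20. The other kept probes of TIA1 disagreed, with 0.11 at one and -0.60 at the other (unadjusted p = 0.0331 and adjusted p = 0.233 from limma with every probe tested on its own). The neuronal genes ELAVL2, ELAVL3 and ELAVL4 were not kept. Of 11 kinases, phosphatase subunits and 14-3-3 proteins that act on ZFP36, 1 was higher and 1 lower before adjustment and 0 after. YWHAH, a 14-3-3 gene, was at 0.78 (adjusted p = 0.211 from limma). MAPK14, which encodes p38 alpha, was at -0.73 (adjusted p = 0.164 from limma) at its brighter probe and at 0.40 at its other kept probe.

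The last list held 25 transcripts known as targets of the ZFP36 family, and all 25 were measured. CSF3, CXCL8 and TNF were well above background in just 1 control sample and in both embelin samples, so they were kept only through the group where they were higher and are left out of the counts that follow, a choice made after seeing the data. Of the other 22, limma called 6 higher and 0 lower after adjustment, and the median log2 fold change was 1.05 against -0.06 over all genes well above background in every sample. At the methods' threshold 12 were higher and 3 lower by limma. Of all 15515 genes well above background in every sample, 171 were called higher and 72 lower after adjustment. At the methods' threshold 544 of them were higher and 496 lower. As the list was drawn up with results of these data known, its direction is not independent evidence. PTGS2, the inducible prostaglandin synthase, had log2 signals of 11.63 and 11.23 in the controls and 14.73 and 14.57 with embelin, a log2 fold change of 3.22 ± 0.22 (adjusted p = 0.0233 from limma). PLAUR, the urokinase receptor, went from 11.88 and 12.35 to 14.95 and 15.33, a log2 fold change of 3.02 ± 0.26 (adjusted p = 0.0336 from limma). VEGFA rose by 3.63 and FOS by 2.43 on the log2 scale.

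The 3 members of this list that were more than 2-fold lower, named after their values were seen, were the chemokine genes CXCL1 and CXCL2 and the cytokine gene IL6. CXCL1 had log2 signals of 15.89 and 16.13 in the controls and 14.95 and 14.85 with embelin. IL6 had 8.86 and 8.65 against 7.71 and 7.64. The log2 fold changes were -1.11, -1.10 and -1.07 with adjusted p of 0.0764, 0.0838 and 0.0762 from limma, and in all 3 the groups were apart. Of the 22 targets well above background in every sample 14 lay above 0 and 8 below.

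**Figure D4:**
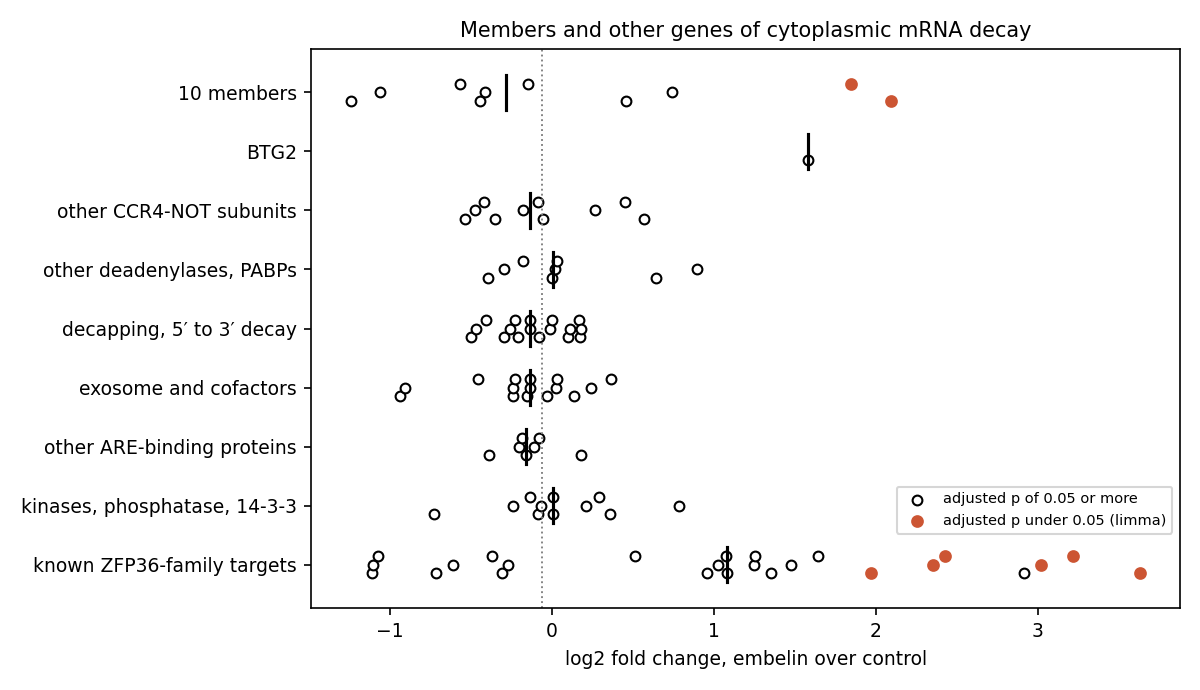
Log2 fold change of embelin over control (horizontal axis) for the 10 members and the 94 other genes measured, by list. Each point is a gene, filled where limma's adjusted p was below 0.05, thick bars are medians, CSF3, CXCL8 and TNF are drawn and enter the bar of their list, and the dotted line is the median of all genes (-0.06). Called genes appear among the members (ZFP36 and BTG1) and the known targets, while the decay machinery centres near 0.

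The calls of ZFP36 and BTG1 rest on all 4 arrays. Leaving out control replicate 1, control replicate 2, embelin replicate 1 or embelin replicate 2 gave log2 fold changes of 1.92 to 2.27 for ZFP36 and 1.79 to 1.90 for BTG1, with adjusted p from limma of 0.0840 to 0.181 and 0.0776 to 0.213, and limma then called 0 genes of the whole array, with 2134 to 3075 at unadjusted p below 0.05. The calls were also lost with the array position as a covariate (adjusted p of 0.112 and 0.110 from limma) and with array background as a block (0.184 and 0.189), as well as without a filter on dim probes (0.384 and 0.383) and by the methods' t-test (0.198 and 0.146). Position was recorded for every array, whereas the background grouping was drawn from the counts of probes well above background. Position entered as a number with the same mean in both groups, and the background blocks were balanced between them. Neither term could therefore change the fold changes of these genes, and inner against outer position was not in the model. The part of position or background in these results was not tested beyond these values.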

How the data were processed

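RNA of 2 control and 2 embelin samples was hybridized in 1 colour (Cy3) to 1 slide. The authors deposited spot intensities from Feature Extraction 10.7.3.1 (per the file headers), with background subtracted, trends within the array corrected and surrogate values for spots not above background. They were not normalized between arrays. The authors' table of probe values holds these intensities averaged over spots, except that 97 to 117 of its 50238 probes per array differed from such a mean by more than 0.001 in log2.

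Here the intensities were scaled to equal 75th percentiles (the shift named in the study's methods), given a floor of 1 and log2 transformed. The percentile was taken over all 51538 spots that are not controls. Outlier spots were left out and the spots of a probe averaged. A probe was kept (26146 of 50238) if both replicates of either group were well above background, and the brightest kept probe stood for its gene. Names came from accessions in a current RefSeq table for 28595 probes, through another probe of the same name for 2341, and from the files for 19302, with older symbols looked up for listed genes. Embelin was compared with control with limma 3.58.1 in R 4.3.3 (lmFit and eBayes), adjusted over 17649 genes by Benjamini-Hochberg. The number of arrays limits the precision. The fit was also run on simulated data, with variances drawn from limma's own fitted prior and added changes larger than those of most members. That run does not show how well smaller changes are found.

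The members and gene lists were chosen with earlier results of these data known. All members were named, and of each list the 4 largest adjusted calls, or the 2 largest changes where none was called. Alternatives were normexp background correction (offset 50), quantile normalization, the deposited table, no filter and a filter on all 4 arrays, eBayes with trend and robust, the methods' t-test, a term for replicate number, array background or position, the mean over probes, each probe on its own, and each array left out.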

Additional observations from a re-analysis of the deposited data

How the results depend on the processing

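Each of the 10 members kept its direction under all 17 alternatives run, one of which, the outlier spots left out of the percentile, was chosen after seeing the data. For the members many of these could not change the log2 fold change, since they reuse the same probe values in balanced groups. These were the filters, the methods' t-test, trend and robust, each model term and each probe on its own. The adjusted calls of ZFP36 and BTG1 varied, while their log2 fold changes ran from 1.92 to 2.27 and from 1.79 to 1.90 over all alternatives. The cause was not tested where a call was lost. Leaving out 1 array changes both the number of arrays and the values that remain.

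After adjustment the number of members called was 2 in the main comparison, 1 with the deposited table (ZFP36 at 2.09 with adjusted p = 0.0508 from limma) and 0 without a filter on dim probes, with the methods' t-test, and with array background or array position in the model. These 4 reuse the main probe values in balanced groups, so ZFP36 and BTG1 were necessarily at 2.10 and 1.85. Their adjusted p from limma was 0.384 and 0.383 without the filter, 0.184 and 0.189 with background, and 0.112 and 0.110 with position. By the methods' t-test it was 0.198 and 0.146. ZFP36L2 was called with trend and robust, at -1.24. With any 1 array left out 0 members were called. The number at the methods' threshold was 4, but 2 by the methods' t-test, and between 2 and 4 with 1 array left out.

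The number of related genes called was 6 in the main comparison, 12 with normexp, 15 with the filter on all 4 arrays, 17 with trend and robust, 10 with outlier spots left out of the percentile, and 0 without the filter, with the methods' t-test, with background or position in the model, or with any 1 array left out. Over all genes limma called 320 in the main comparison, between 0 and 1061 across the alternatives.

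The labels number the replicates 1 and 2 in both groups without saying that a number marks a shared batch. Deviations of same-numbered arrays from their group means correlated at 0.18 over 17298 genes, which with 2 pairs does not show pairing. With the replicate block 0 members and 0 related genes were called, with ZFP36 at 2.10 and BTG1 at 1.85 (adjusted p of 0.0832 and 0.0828 from limma), and limma called 0 genes over the whole array (3743 before adjustment).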
